A study of Homo sapiens with 6 samples.

Results

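The transcription factors that drive an epithelial-mesenchymal transition (EMT) were followed across 6 conditions of HMLE cells, human mammary epithelial cells that were made immortal and grow as an epithelial line. The set has 10 genes: SNAI1, SNAI2, TWIST1, TWIST2, ZEB1, ZEB2, PRRX1, FOXC2, TCF4 and HMGA2. Every probe that the platform annotation assigns to one of these symbols, or to an older alias, was taken, which gave 15 probes of the 47323 on the array and 10 of its 20046 named genes. Of the 10 genes, 5 had 1 probe and 5 had 2. Expression was measured on Illumina HumanHT-12 v4 BeadChips with 1 array per condition. The conditions were cells with the control vector (Vector), cells given 20 μM docosahexaenoic acid, an omega-3 fatty acid (DHA), cells with ectopic Snail (Snail), cells with Snail and 20 μM DHA (Snail+DHA), cells given TGF-β at 1 ng/ml (TGF-β), and cells given that dose of TGF-β with 20 μM DHA (TGF-β+DHA). The TGF-β dose is that of the array labels, and the culture methods of the study give a different one without reference to the arrays. The study's methods describe Snail as stably expressed from a retroviral vector after drug selection, with the empty vector in the control cells. The sources used here do not say whether the cells given DHA or TGF-β alone also carried that vector.

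In an EMT, epithelial cells lose their junctions and polarity and take on the shape and motility of mesenchymal cells. The Snail proteins (SNAI1, SNAI2) and the ZEB proteins (ZEB1, ZEB2) are zinc finger repressors that bind E-box sequences in promoters such as that of the E-cadherin gene CDH1. TWIST1 and TWIST2 are basic helix-loop-helix proteins that pair with E proteins such as the TCF4 product, and PRRX1 and FOXC2 are a homeobox and a forkhead factor that promote the mesenchymal state. HMGA2 is an AT-hook chromatin protein of embryonic and transformed cells, known in mouse mammary epithelium as a target of TGF-β that raises Snail and Twist expression.

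The arrays carry no replicates, so a difference between 2 arrays cannot be set against a spread, and its precision is limited by the number of arrays. Values are the deposited log2 values, which the authors had quantile normalized. The share of probes above the estimated background was 37.9% to 44.4% by array, and the lowest log2 value above it was 6.37 to 6.48 by array. Over the 25800 probes above background on at least 1 array, correlations between arrays were 0.939 to 0.985, and no pair held identical values. A pair of arrays was compared over the probes above background on at least 1 of them, and a difference was called at 2-fold, a log2 difference of 1. Where only 1 of the arrays was above background, the difference is a lower bound, written "at least". Of the 7 mammary epithelial markers with a probe, 6 were above background on the Vector, DHA, TGF-β and TGF-β+DHA arrays and 5 on both Snail-labelled arrays, where EPCAM was not. KRT19 was below background on all 6 arrays. The levels of these markers were lower with Snail. Between Snail and Vector, 5 of 6 were called lower (median log2 difference -2.54), against 4.32% of 12352 genes. Between Snail+DHA and DHA, 5 of 6 were called lower (-3.63), against 620 of 11704 genes. With DHA in Snail-labelled cells, 2 of 5 were called lower (-0.99), against 2.26% of 11807 genes. Of the 5 leukocyte markers with a probe, 2 or 3 were above background on each array, while PTPRC and CD3E were on none. CD68, a lysosomal protein of macrophages, read 8.39 on Vector and 10.42 and 10.54 on the Snail-labelled arrays, and was called higher in both comparisons with Snail. Endothelial markers were above background for 0 or 1 of 4 by array. The part of these markers in the differences of the members was not tested.

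SNAI1 itself did not check the Snail label. Its probe read 5.90 on the Vector array, 6.02 with DHA, 5.98 on the Snail array, 5.99 on Snail+DHA, 5.91 with TGF-β and 5.88 with TGF-β+DHA. All 6 values lay below background, those of the arrays labelled Snail included, so the array does not show the ectopic transcript. The sources used here do not give the place of the probe on the SNAI1 transcript or the extent of the ectopic construct, so the probe may not be able to report the construct. Every direction given below for Snail therefore rests on the label. The genes that Snail and ZEB proteins are known to repress give a separate measurement of these arrays: CDH1 read 11.46 on the Vector array and 6.39, below background, on the Snail-labelled array, a fold of at least 33.6 downward.

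Of the 15 probes, 7 were above background on all 6 arrays, 6 on 1 to 5 arrays and 2 on none. By gene, 9 of the 10 had a probe above background on at least 1 array and 6 on all 6 arrays, namely SNAI2, TWIST1, TWIST2, FOXC2, TCF4 and HMGA2. By array, the number of probes above background was 7 on Vector, 8 on DHA, 13 on the Snail-labelled array, and 9 each on Snail+DHA, TGF-β and TGF-β+DHA. The share of all probes was 41.8%, 40.5%, 42.6%, 37.9%, 44.4% and 40.7% in the same order. On the Snail-labelled array FOXC2 probe 2, HMGA2 probe 1, ZEB2 probe 2, ZEB1 and PRRX1 probe 2 read 6.42 to 6.51. The lowest value above background there was 6.39. At a detection p under 0.01, the member probes above background on Snail or Vector fell from 13 to 9. Of the 7 probes above background on every array, 3 had their highest value on a Snail-labelled array, a share close to the 40.4% of all 14917 such probes. A range of at least 1 over the arrays was found for 7 of the 15 probes, each of them among the 13 above background on at least 1 array. Of all probes above background on any array, 18.1% had such a range. Both figures include the filter on background and are given as a description.

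**Figure D1:**
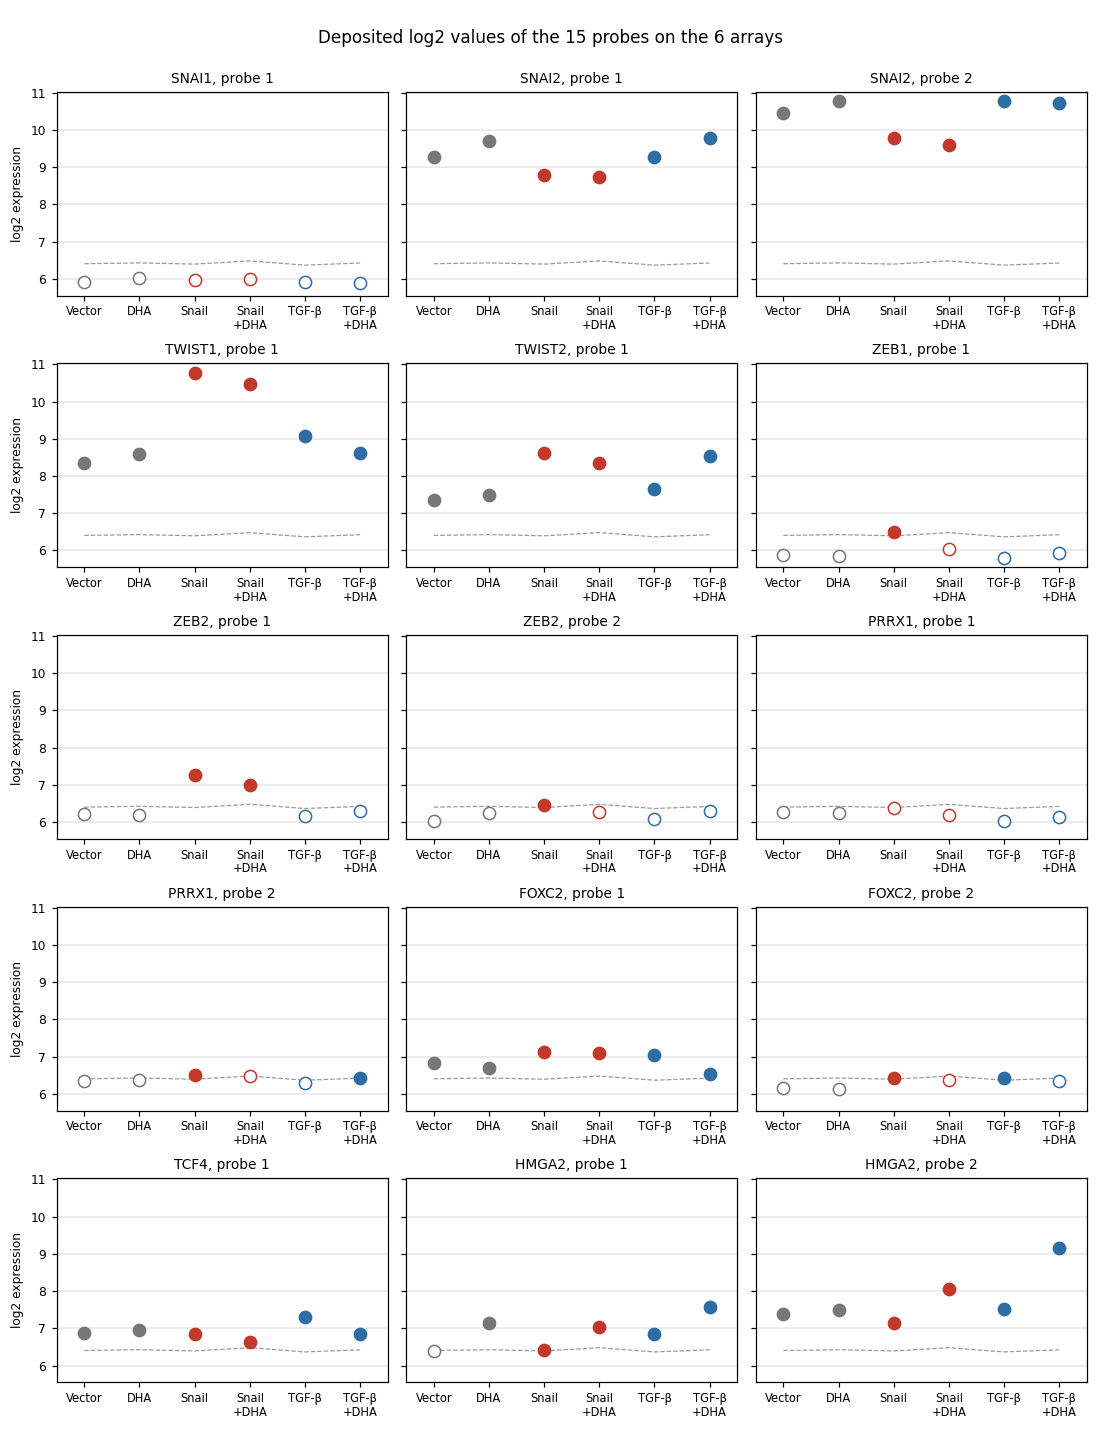
Deposited log2 expression (y axis) of the 15 probes of the 10 EMT transcription factors on the 6 arrays (x axis, 1 array per point, no error bars because no condition has a replicate). Filled points are above background, open points are not, and the dashed line is the lowest value above background on each array. TWIST1 stands at 10.76 and 10.48 on the Snail-labelled arrays and at 8.35 to 9.08 elsewhere, and HMGA2 probe 2 is highest at 9.16 with TGF-β+DHA.

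On the Snail-labelled array TWIST1, TWIST2 and ZEB2 were higher than on Vector, ZEB2 as a lower bound, and SNAI2, which encodes Slug, was lower by less than 2-fold. TWIST1 read 8.35 on the Vector array, 8.59 with DHA, 10.76 on the Snail-labelled array, 10.48 on Snail+DHA, 9.08 with TGF-β and 8.63 with TGF-β+DHA. The values of the 2 Snail-labelled arrays lay above those of the other 4. The share of all probes that separate in this way was not computed, so this is a description. TWIST1 was 5.34-fold higher on the Snail-labelled array than on Vector, a log2 difference of 2.42, and 3.70-fold higher on Snail+DHA than on DHA, a log2 difference of 1.89.

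TWIST2, the paralog of TWIST1, read 7.35 on Vector, 7.48 with DHA, 8.62 on the Snail-labelled array, 8.36 on Snail+DHA, 7.66 with TGF-β and 8.54 with TGF-β+DHA. Its high arrays were thus the 2 labelled Snail and the 1 with TGF-β and DHA together, and TGF-β alone lay 0.31 above Vector. The log2 difference was 1.28 (2.42-fold) between Snail and Vector and 0.88 between Snail+DHA and DHA, which is under 2-fold. The probes of both TWIST genes were called higher in the comparison of Snail with Vector, 2 of the 13 member probes above background on either array, against 3.08% of 22447 probes called higher and 3.38% called lower. No member probe was called lower.

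ZEB2 and ZEB1 came above background only where Snail was labelled. ZEB2 probe 1 read 6.22 on Vector, 6.19 with DHA, 7.26 on the Snail-labelled array, 7.00 on Snail+DHA, 6.18 with TGF-β and 6.30 with TGF-β+DHA, and was above background on the Snail-labelled arrays alone. ZEB2 was at least 1.81-fold higher on the Snail-labelled array than on Vector, short of a call, where the measured log2 difference was 1.04. It was at least 1.48-fold higher on Snail+DHA than on DHA.

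The second ZEB2 probe, which the platform assigns to an expressed sequence tag, read 6.04, 6.26, 6.46, 6.27, 6.10 and 6.29 on Vector, DHA, Snail, Snail+DHA, TGF-β and TGF-β+DHA. It was above background on the Snail-labelled array alone, by a small margin. The single ZEB1 probe read 5.88, 5.85, 6.49, 6.05, 5.80 and 5.94 in the same order, and was likewise above background on that array alone. ZEB1 was at least 1.06-fold higher there than on Vector, with a measured log2 difference of 0.61. With ZEB1 this close to background on 5 arrays, its order among the conditions is not resolved.

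The promoters of ZEB2 and TWIST2 are shown because these genes were higher on the Snail-labelled arrays and because Snail, Slug and ZEB proteins bind CAGGTG, which is 1 form of the E-box CANNTG, and the related CAGGTA. The stretches are the 250 bases before the RefSeq start site in GRCh38.p14, written 5′ to 3′ on the gene's strand, with any CANNTG match in capitals, at chr2:144520120-144520369 on the minus strand for ZEB2 and chr2:238847835-238848084 on the plus strand for TWIST2. RefSeq promoter entries were found for 5 of the 10 genes.
ZEB2 promoter: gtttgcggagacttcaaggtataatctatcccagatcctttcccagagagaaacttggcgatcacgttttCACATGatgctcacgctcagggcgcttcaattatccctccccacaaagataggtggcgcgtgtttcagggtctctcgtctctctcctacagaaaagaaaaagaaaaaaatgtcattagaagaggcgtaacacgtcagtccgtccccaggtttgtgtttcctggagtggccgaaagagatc
TWIST2 promoter: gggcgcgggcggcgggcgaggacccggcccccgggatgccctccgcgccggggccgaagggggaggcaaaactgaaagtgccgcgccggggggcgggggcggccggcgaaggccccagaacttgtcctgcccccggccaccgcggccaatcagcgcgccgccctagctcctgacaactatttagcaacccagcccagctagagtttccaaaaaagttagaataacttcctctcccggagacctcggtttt
The ZEB2 stretch holds 1 CANNTG, the CACATG at position -180 from the start, and the TWIST2 stretch holds none. Searched on both strands, neither holds CAGGTG or CAGGTA. Every CAGGTG is also counted as a CANNTG, and CAGGTA is not. Over 35116 RefSeq promoter stretches of the same length, 61.8% hold CANNTG, 17.5% CAGGTG and 7.99% CAGGTA. Of the 7 ZEB1 start sites, 1 has a CAGGTG at -57 and another has 2 of them. A further ZEB1 start site has a CAGGTA at -240 and yet another has 1 at -145. None of the 10 TCF4 start sites has CAGGTG or CAGGTA, nor does that of PRRX1. These matches are descriptions of the letters and not measurements of binding.

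SNAI2 ran the other way in Snail-labelled cells, on both of its probes. SNAI2 probe 1 read 9.26 on Vector, 9.71 with DHA, 8.78 on the Snail-labelled array, 8.74 on Snail+DHA, 9.28 with TGF-β and 9.79 with TGF-β+DHA. SNAI2 probe 2 read 10.46, 10.78, 9.79, 9.58, 10.77 and 10.71 in the same order. On each probe the Snail-labelled arrays were the lowest 2 of the 6, an order whose share over all probes was not computed. Between Snail and Vector the log2 differences were -0.48 and -0.67, under 2-fold. Between Snail+DHA and DHA they were -0.97 and -1.19, and the second of these passed 2-fold. In that comparison, 1 probe (TWIST1) was called higher and 1 (SNAI2) lower among 9 member probes above background on either array, against 3.44% of 21016 probes called higher and 4.13% called lower.

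The other members differed by under 2-fold with Snail. FOXC2 probe 1 read 6.82 on Vector, 6.71 with DHA, 7.13 on the Snail-labelled array, 7.10 on Snail+DHA, 7.06 with TGF-β and 6.52 with TGF-β+DHA, and was 0.31 higher on the log2 scale on Snail than on Vector and 0.40 higher on Snail+DHA than on DHA. FOXC2 probe 2, assigned to an expressed sequence tag, read 6.16, 6.12, 6.42, 6.37, 6.42 and 6.35 in that order and was above background on Snail and TGF-β alone. The level of FOXC2 was thus measured on every array by probe 1 only.

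TCF4, the E protein also called E2-2 and not the T cell factor gene TCF7L2 of similar alias, read 6.87 on Vector, 6.96 with DHA, 6.85 on Snail, 6.62 on Snail+DHA, 7.31 with TGF-β and 6.85 with TGF-β+DHA. Its log2 difference was -0.03 between Snail and Vector and -0.34 between Snail+DHA and DHA. HMGA2 probe 2 had -0.23 in the first comparison and 0.58 (1.49-fold) in the second, with opposite signs, and HMGA2 probe 1 had at least 0.02 and -0.12. PRRX1 probe 1 read between 6.02 and 6.37 and was above background on no array. PRRX1 probe 2 read 6.35, 6.36, 6.51, 6.47, 6.30 and 6.43 on Vector, DHA, Snail, Snail+DHA, TGF-β and TGF-β+DHA, and passed background on Snail and TGF-β+DHA only. On these 2 arrays PRRX1 probe 2 lay close to the lowest value above background.

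None of the 6 member genes with a probe above background on the Vector or TGF-β array differed 2-fold with TGF-β at the labelled dose. The comparison of TGF-β with Vector uses the same Vector array as that of Snail. Of 9 member probes above background on either array, 0 were called, against 0.794% of 22553 probes called higher and 0.696% called lower. TWIST1 had the largest difference among them, 0.73 on the log2 scale or 1.66-fold, followed by HMGA2 probe 1 at 0.45 or more, TCF4 at 0.43, TWIST2 at 0.31 and SNAI2 probe 2 at 0.31. FOXC2 probe 1 was 0.24 higher, HMGA2 probe 2 was 0.12 higher and SNAI2 probe 1 was 0.02 higher. SNAI1, ZEB1, ZEB2 and PRRX1 were below background on both arrays, so no fold is given for them and the comparison says nothing about them.

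The order changed when TGF-β cells and control cells both had DHA. HMGA2 probe 2 was 3.18-fold higher on TGF-β+DHA than on DHA, a log2 difference of 1.67, and TWIST2 was 2.07-fold higher, a log2 difference of 1.05. These were 2 of the 9 member probes above background on either array, against 1.49% of 21352 probes called higher and 1.38% called lower. TWIST1 differed by 0.04, against 0.73 without DHA, and TCF4 by -0.11. Whether the TGF-β difference of a gene itself differed with DHA was not tested.

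**Figure D2:**
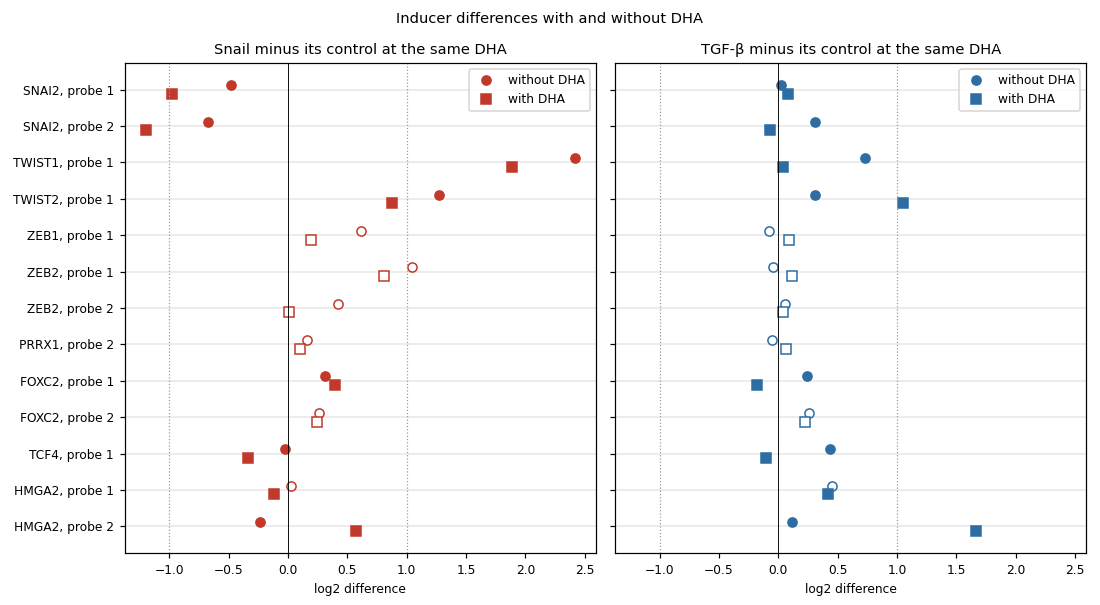
Log2 difference (x axis) of each probe above background on any array between an inducer and its control, Snail on the left and TGF-β on the right, as circles without DHA (against Vector) and squares with DHA (against DHA), 1 array on each side and no error bars. Open symbols mark differences in which at least 1 of the arrays was below background, plotted as measured, and dotted lines mark 2-fold. TWIST1 lies at 2.42 and 1.89 with Snail, and HMGA2 probe 2 lies at 0.12 without DHA and 1.67 with DHA for TGF-β.

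DHA went with higher HMGA2 on the induced cells. HMGA2 probe 2 read 7.39 on Vector, 7.49 with DHA, 7.16 on the Snail-labelled array, 8.06 on Snail+DHA, 7.51 with TGF-β and 9.16 with TGF-β+DHA. Both induced arrays with DHA were above all 4 others, an order whose share over all probes was not computed. HMGA2 was 3.13-fold higher on TGF-β+DHA than on TGF-β, a log2 difference of 1.65, and 1.88-fold higher on Snail+DHA than on Snail, a log2 difference of 0.91. In Vector cells the difference was 0.10, and it turned to -0.15 when arrays were scaled to a common median instead of quantile normalized.

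HMGA2 probe 1, designed to another RefSeq transcript of the gene, read 6.40 on Vector, 7.15 with DHA, 6.43 on the Snail-labelled array, 7.03 on Snail+DHA, 6.86 with TGF-β and 7.58 with TGF-β+DHA. All 3 arrays with DHA were above the 3 without it, and the share of all probes with this order was not computed. The log2 difference with DHA was at least 0.75 in Vector cells, where Vector was below background, 0.61 in Snail-labelled cells and 0.72 in TGF-β cells, and these were 0.60, 0.45 and 0.59 with a common median. The probes of HMGA2 thus gave different sizes in Vector cells, at least 0.75 and 0.10.

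In TGF-β cells HMGA2 probe 2 was the 1 member probe of 10 called with DHA, against 1.92% of 22542 probes called higher and 2.42% called lower. TWIST2 was 1.83-fold higher with DHA there, a log2 difference of 0.87, while the log2 differences were -0.45 for TWIST1, -0.45 for TCF4 and -0.53 for FOXC2 probe 1. SNAI2 differed by 0.51 on probe 1 and by -0.06 on probe 2, so its probes gave different sizes and signs. In Snail-labelled cells 0 of 13 member probes were called, against 1.06% of 21306 probes higher and 1.68% lower. Besides HMGA2, the measured log2 differences there were -0.28 for TWIST1, -0.27 for TWIST2, -0.27 for ZEB2 probe 1, -0.22 for TCF4, -0.03 for FOXC2 probe 1, and -0.05 and -0.20 for the SNAI2 probes.

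Between DHA and Vector, 0 of 8 member probes were called, against 0.24% of 21623 probes higher and 0.943% lower. SNAI2 was higher by 0.45 on probe 1 and 0.32 on probe 2, TWIST1 by 0.25, TWIST2 by 0.13 and TCF4 by 0.09. With a common median, these became 0.10, -0.01, -0.10, -0.12 and -0.07, so 4 of the 5 directions depend on the scaling. That scaling moved the median of all probes compared to -0.19, and under it 3.58% of the calls between DHA and Vector were in the higher direction, against 20.3% with quantile normalization.

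**Figure D3:**
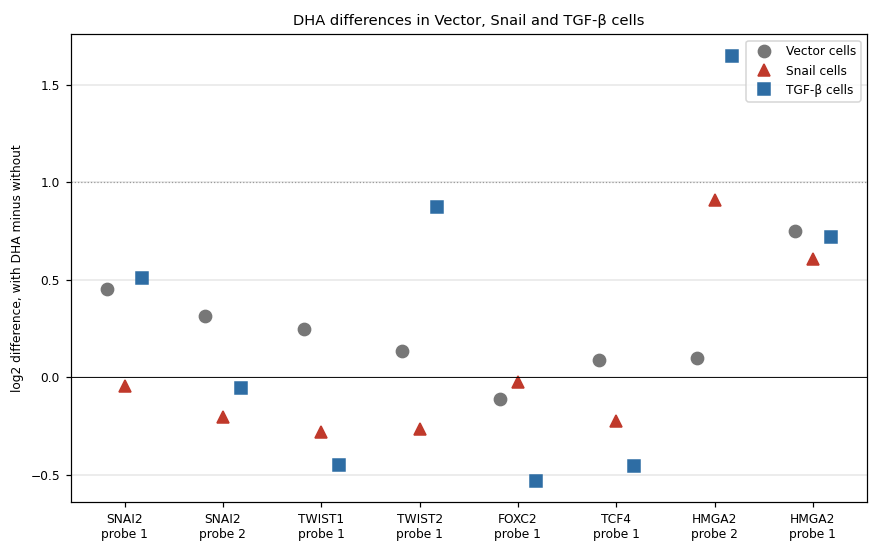
Log2 difference with DHA minus without (y axis) for the 7 probes above background on all 6 arrays and HMGA2 probe 1 (x axis), in Vector cells (circles), Snail-labelled cells (triangles) and TGF-β cells (squares), 1 array on each side and no error bars, with a dotted line at 2-fold. HMGA2 probe 2 reaches 1.65 in TGF-β cells, and HMGA2 probe 1 lies at 0.61 to 0.75 in all 3. The circles of SNAI2 probe 2, TWIST1, TWIST2, TCF4 and HMGA2 probe 2 change sign with a common median.

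An additive model with an inducer term and a DHA term was then fitted with limma over the 6 arrays and all 25800 probes above background on any array. Its 2 residual degrees of freedom hold the departure from additivity and not a spread between replicates. Limma pools that departure with its trend over all probes (prior degrees of freedom 7.19). The p-values of the fit were adjusted by Benjamini-Hochberg over all 25800 probes. They describe the size of a term against this pooled departure, so a probe that was steady across the pairs of arrays can still miss the threshold. TWIST1 rose in the Snail term, by 2.15 ± 0.26 (SE, adjusted p = 0.00137). It was the 1 called of the 7 member probes above background on all 6 arrays. Among all 25800 probes in the fit, which include those below background on some arrays, 2.77% were called higher and 3.43% lower. The share called among the 14917 probes above background on all 6 arrays was not computed. The term of ZEB2 probe 1 was 0.93 ± 0.15 (SE, adjusted p = 0.00568), but this probe entered the fit only through the Snail-labelled arrays, where it was high, and the 4 others were below background, so its term is a description and the bounds above are its result.

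TWIST2 and SNAI2 missed the threshold in the Snail term, with 1.08 ± 0.28 for TWIST2 (SE, adjusted p = 0.0560), -0.93 ± 0.24 for SNAI2 probe 2 (SE, adjusted p = 0.0570) and -0.73 ± 0.25 for SNAI2 probe 1 (SE, adjusted p = 0.150). Without the TGF-β arrays the adjusted p was 0.0138 for TWIST2 and 0.0566 for SNAI2 probe 2. That fit leaves out the TGF-β+DHA array, where TWIST2 was high, and its Snail term called 2016 probes in all, against 1600. With a common median the adjusted p was 0.0841 for TWIST2 and 0.0419 for SNAI2 probe 2. The term of TCF4 was -0.18, with an interval from the pooled departure from additivity of -0.58 to 0.22 (95%).

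In the TGF-β term 0 of the 13 member probes in the fit were called by limma, against 0.0116% of all probes higher and 0.0388% lower. The terms with the lowest adjusted p among members were 0.44 ± 0.15 for HMGA2 probe 1 (SE, adjusted p = 0.790) and 0.89 ± 0.32 for HMGA2 probe 2 (SE, adjusted p = 0.795). TWIST2 was 0.68 (95% interval 0.05 to 1.31) and TWIST1 0.38 (-0.21 to 0.97), both unadjusted intervals.

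In the DHA term 0.0% of all 25800 probes were called at the adjusted threshold, although 3071 had an unadjusted p under 0.05. HMGA2 had the largest DHA terms of the members, 0.69 ± 0.13 for probe 1 (SE, adjusted p = 0.195) and 0.88 ± 0.26 for probe 2 (SE, adjusted p = 0.279), with the with-DHA array higher in 3 of 3 pairs on each probe, except that the Vector pair of probe 2 turned with a common median. Without the Vector pair, where the DHA difference of probe 2 was small, the terms were 0.66 (adjusted p = 0.0253) and 1.28 (adjusted p = 0.00238) and 1631 probes in all were called. Leaving out its smallest difference had to raise the term of probe 2, and that fit has 1 residual degree of freedom, so it is a description. Without the Snail pair the terms were 0.73 (adjusted p = 0.219) and 0.87 (adjusted p = 0.503). Without the TGF-β pair they were 0.68 (adjusted p = 0.421) and 0.50 (adjusted p = 0.799). The DHA term of SNAI2 probe 2 was 0.02 with a 95% interval of -0.43 to 0.47, and that of TWIST1 was -0.16 with -0.64 to 0.32.

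**Figure D4:**
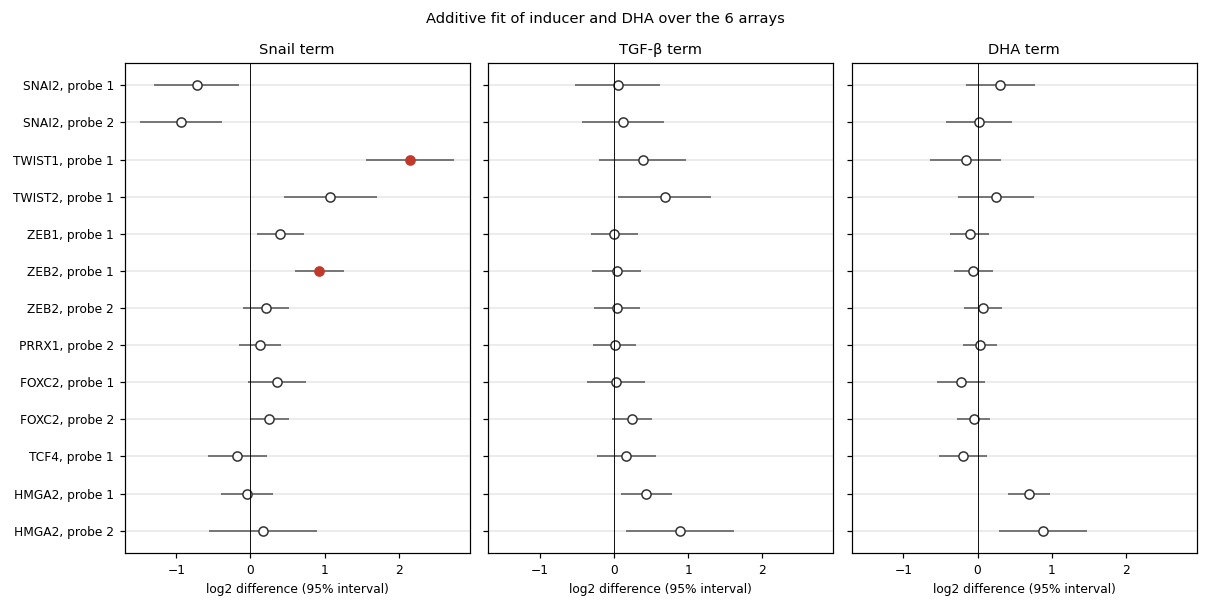
Terms of the additive limma fit (x axis, log2 difference) for the 13 member probes above background on any array, for Snail, TGF-β and DHA, with 95% intervals that are not adjusted for the number of probes. Filled points have an adjusted p under 0.05 over all 25800 probes. The 2 filled points are in the Snail term, TWIST1 at 2.15 and ZEB2 probe 1 at 0.93, the latter above background on the Snail-labelled arrays alone.

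Across the 6 arrays the members fell into different patterns. As a description over 6 arrays that share 1 normalization, TWIST1 and ZEB2 probe 1 had a Pearson correlation of 0.959, TWIST1 and the SNAI2 probes -0.861 and -0.894, and TWIST1 and TWIST2 0.689. The SNAI2 probes correlated at 0.903 with each other and the HMGA2 probes at 0.848. Among 3990 probes above background with a range of at least 1 and 1 gene symbol, those most like TWIST1 were ALPK2 (0.998), MSRB3 (0.993) and GPAM (0.990). Those most like ZEB2 were KHDRBS3 (0.998), HAS2-AS1 (0.998) and NECTIN3 (0.997), and those most like TWIST2 were SLC46A3 (0.958), TUBB (0.955) and PLCG1 (0.953). ZEB2 probe 1 entered only through the Snail-labelled arrays, where it was high, and was below background on the others. Its correlations, that with TWIST1 included, restate this split of the arrays and give no support beyond it.

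For SNAI2 the nearest were REXO4 (0.989), LPAR3 (0.989) and QSOX2 (0.981) on probe 1 and ABCG1 (0.999), MRPS2 (0.995) and SH2D3A (0.994) on probe 2. For HMGA2 they were FKBP4 (0.971), MAPKAPK3 (0.966) and C19orf33 (0.961) on probe 1 and SLC20A1 (0.990), STEAP1 (0.978) and MCM3 (0.971) on probe 2. No gene was among the nearest 3 of both probes of SNAI2 or of HMGA2. Each correlation rests on 6 points, and these genes were taken as the highest of 3990 probes.

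The genes around these factors differed most with Snail. Of 31 genes known to be repressed by Snail and ZEB proteins, 17 were called lower on the Snail-labelled array than on Vector and 0 higher, with a median log2 difference of -1.39, against 4.32% of 12352 genes lower, 4.08% higher and a median of 0.02. The largest were CDH1, the trafficking gene RAB25, the adhesion gene EPCAM and MAL2, whose log2 differences were -5.07, -4.95, -4.83 and -4.31 as bounds, since all 4 were below background on the Snail-labelled array. Of 25 mesenchymal genes, 19 were higher and 0 lower, with a median of 1.61. The largest were DCN, which encodes decorin, at 6.56 or more, and the collagen genes COL3A1 at 5.05 or more, COL1A1 at 3.12 and COL5A2 at 2.98. Of the 7 fibroblast and mesenchymal markers, 6 were above background on each Snail-labelled array, 3 on Vector and DHA, 4 on TGF-β and 2 on TGF-β+DHA, and PDGFRA was on none. Their part in the differences of the TWIST and ZEB genes was not tested, and a share of cells and RNA per cell cannot be told apart in such bulk samples.

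Other factors linked to EMT were called in both directions with Snail. Of 20 above background, 1 was called higher and 4 lower, with a median of 0.05. Over all 12352 genes compared, 4.08% were called higher and 4.32% lower. RUNX2, the Runt factor of bone, was higher by at least 1.16. The log2 difference was -2.18 as a bound for SOX9, which was below background with Snail. ID1 and ID3, which encode inhibitors that sequester E proteins, had -1.92 and -1.25. The remaining one, SOX4, had -1.01 and is named after its value was seen. SNAI3, the third Snail family gene, read between 6.06 and 6.30 and was above background on 0 of the 6 arrays. None of 21 corepressors and chromatin partners of the Snail and ZEB proteins and none of 21 regulators of Snail protein stability were called, with medians of -0.04 and 0.16. Lists of this length are too short for an absence of calls to be told from the shares over all genes. Of 21 genes of TGF-β and related signaling, TGFBR3, a TGF-β co-receptor, was higher by 2.44, and NOTCH1 and IGF2BP3 were lower, at -1.31 and -1.05.

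With TGF-β, fewer of these genes differed. Of 32 repressed genes, 3 were called lower and 0 higher, with a median of -0.11 against 0.04 for all genes, of which 0.842% were lower and 1.13% higher. The log2 differences were -2.32 for the claudin gene CLDN1, -2.26 for MAL2, -1.01 for CLDN7 and 0.05 for CDH1. Of 21 mesenchymal genes, 5 were higher and 0 lower, led by the intermediate filament gene VIM at 1.78, THY1 at 1.14, and the cadherin genes CDH2 at 1.10 and CDH11 at 1.10 or more. Of the 19 other factors, SOX9 alone was called, at -1.46, and of 21 signaling genes NOTCH1 alone, higher by 1.09. None of 21 corepressors and none of 18 stability regulators were called.

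With DHA, the inhibitor gene ID3 was lower in both kinds of induced cells. In Snail-labelled cells ID3 was lower, at -1.44, the 1 call among 19 other factors. In TGF-β cells ID3 was at -1.18 and HMGB3, which encodes a chromatin protein of the high mobility group, at 1.21, the 2 calls among 17. Of the mesenchymal genes, 7 of 25 were lower and 0 higher in Snail-labelled cells, led by COL3A1 at -2.60, PDGFRB at -1.72, AXL at -1.40 and SPARC at -1.38, against 2.26% of 11807 genes lower and 1.27% higher. In TGF-β cells 2 of 21 were higher and 2 lower, against 1.98% of 12353 genes higher and 3.42% lower. In Vector cells 0 of 18 other factors and 0 of 21 mesenchymal genes were called, against 0.302% of 11932 genes higher and 1.31% lower. Of the signaling genes, 1 of 21 was called higher and 0 lower with DHA in Vector cells (TGFBR3, at 1.06). In Snail-labelled cells 1 of 21 was higher (FOSL1, an AP-1 subunit, at 1.05) and 2 were lower (TGFBR3 at -1.38 and STAT3, a transcription factor activated by cytokine receptors, at -1.05). In TGF-β cells 0 of 20 were higher and 3 lower (NOTCH1 at -1.98, STAT3 at -1.69 and the kinase gene MAPK3 at -1.02). Genes repressed by Snail and ZEB proteins were called lower and never higher with DHA, 3 of 31 in Vector cells, 3 of 10 in Snail-labelled cells and 3 of 31 in TGF-β cells, with the mucin gene MUC1 among them each time, at -2.19, -1.27 and -3.20. AJUBA, which encodes a LIM protein that binds Snail, was the 1 corepressor of 21 called in Snail-labelled cells, at -1.33. CTDSP2, of the small C-terminal domain phosphatases that dephosphorylate Snail, was the 1 stability regulator called in Snail-labelled cells, at -1.38, and in TGF-β cells, at -1.32.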

How the data were processed

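RNA of HMLE cells under 6 conditions was measured on 1 array each, all on 1 BeadChip. The deposited intensity values come from a file-creating module of GenePattern, and for the deposited log2 values the authors quantile normalized the arrays. The sources used here do not give the module's background setting. The log2 values were used as deposited. The deposited intensities, up to 3123899, appear to be powers of e with a log2 signal as exponent, and were read so. Signals were restored on this reading by taking 2 to the power of each intensity's natural logarithm. The restored signals were used for the estimate of background and for the alternatives (normexp with offsets of 50 and 16, a common median). Their Spearman correlation with the deposited values was 1. A rank correlation is the same for any rising transform, so it does not test this reading. Control probes were not used. A detection p was estimated from the peak of low signals on each array and the spread below it, and a probe was above background at p under 0.05, which 25800 probes (54.5%) were on at least 1 array. The number of arrays limits the precision.

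Pairs of arrays were compared with no test. The fit used R 4.3.3 with limma 3.58.1 and data.table (version 1.17.8) (lmFit, and eBayes with a trend of variance, Benjamini-Hochberg adjustment, threshold 0.05) and was tested on simulated data. In the lists each gene was represented by its probe of highest mean. Gene symbols came from the platform annotation (1 symbol for 30113 probes, several for 8, none for 17202). All member probes are named, with, from each list, up to 4 called genes of largest difference, and SNAI3, and for members with a range of at least 1 the 3 most correlated genes. The members and lists were chosen with earlier results of these data known.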

Additional observations from a re-analysis of the deposited data

Results flagged for a closer look

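TWIST2 was set apart because its DHA difference ran in opposite directions in the 2 kinds of induced cells. It was -0.27 on the log2 scale in Snail-labelled cells and 0.87 in TGF-β cells, a gap of -1.14, each from 1 pair of arrays. The difference between these effects was not tested.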

How the results depend on the processing

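No call reversed its direction under the alternatives run, but the count of member genes called depends on the offset and the threshold. Between Snail and Vector it was 2, 3 with an offset of 16, no detection filter or the measured difference in place of the bound (adding ZEB2), and 4 at 1.5-fold (adding ZEB2 and, lower, SNAI2). At 1.5-fold it was 1 for TGF-β (TWIST1), and both at 1.5-fold and with an offset of 16 it was 1 for DHA in Vector cells (HMGA2), 1 for DHA in Snail-labelled cells (HMGA2) and 2 for DHA in TGF-β cells (HMGA2 and TWIST2). In the additive fit, leaving out the arrays of 1 inducer state gave 0 to 2 member probes in the DHA term, with 2 without the Vector pair, where all probes called numbered 1631, against 27 without the Snail pair and 0 without the TGF-β pair. SNAI2 probe 2 passed in the Snail term at -1.07 with a common median (adjusted p = 0.0419) and without a trend of variance (adjusted p = 0.0368). It missed the threshold under the other alternatives run. Over all probes, an offset of 16 changed the calls from 336 to 540 for TGF-β, from 256 to 416 for DHA in Vector cells and from 585 to 920 for DHA in Snail-labelled cells, and 1.5-fold raised the 7 counts to between 1221 and 4084. The TGF-β term called 13 probes, 4 without a trend and 48 without the Snail pair, and the DHA term 4 with a common median, 3 with an offset of 16 and 7 without a filter. A common median lowered the share of calls in the higher direction from 47.7% to 36.2% for Snail, from 20.3% to 3.58% for DHA in Vector cells (503 calls in place of 256), from 38.6% to 13.6% in Snail-labelled cells and from 44.2% to 20.7% in TGF-β cells, and raised it from 52.0% to 69.8% between TGF-β+DHA and DHA. It moved the median of all probes compared to -0.19, -0.04, -0.14, -0.10 and 0.10 for DHA in Vector cells, for Snail, for DHA in Snail-labelled and in TGF-β cells, and between TGF-β+DHA and DHA. The causes were not tested. The DHA term already compares each array with DHA with its own inducer state, and the labels carry no replicate numbers for another pairing. Members at background limit what the arrays resolve: SNAI1, ZEB1, ZEB2 and PRRX1 have no measured level on most arrays.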
